A study of Solanum lycopersicum with 12 samples.

Results

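This account describes 112 cDNA clones of tomato root whose log2 ratio between salt-treated and control RNA lay on the positive side after 30 min of salt and on the negative side after 6 hr, in both genotypes studied. They are 112 of the 3456 clones on the array and of the 3018 clones measured on all 12 arrays (3.71% of the latter). The members were chosen by their measured values: the mean of 2 arrays had to be 0.58 or more at 30 min and -1 or less at 6 hr, in LA2711 and in ZS-5, with no centring of the arrays. The 30 min and 6 hr values below are therefore descriptions with no test, and only the 2 hr values and the difference between dye orientations, which the choice did not use, were tested. The 2 hr test takes its spread from all 3 times, so its p-values also draw on values of the choice. None of the 112 clones carries a gene symbol, so each is identified by the numbers of its 3 adjacent spots.

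Seedlings of LA2711, a tomato labelled as salt tolerant, and of ZS-5, labelled as salt sensitive, were treated with salt for 30 min, 2 hr or 6 hr, and root RNA of treated and control plants was hybridised to the same 2-colour array. Each of the 6 conditions (LA2711 and ZS-5 at each of the 3 times) has 2 arrays with the dyes exchanged between them, and such a pair was counted as 1 replicate. An SD over 2 arrays is thus technical. The sources used here do not give the salt dose, the age of the plants or any pooling. The labels do not settle which RNA is the numerator of the ratio, so a positive and a negative value mark 2 opposite directions of change, and which of them is induction is unknown. The values compare 2 root RNAs and give no level of any transcript, so the tissue could not be checked against markers.

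Salt reaches roots first as an osmotic stress, which lowers water uptake within minutes, and later as an ionic stress, as sodium accumulates in the cells. Plants use partly different genes in these phases, and transcripts of signalling and transcription factor genes often change early and transiently. The array carries clones from libraries made by suppression subtractive hybridisation, a method that enriches transcripts differing between treated and control material. Such libraries commonly hold several clones of the same transcript, so the 112 clones need not be 112 genes.

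The arrays held 9013 to 9900 measured spots each. Over all 3018 clones the repeats of a condition correlated with r = 0.81 to 0.98, 2 hr arrays with 6 hr arrays with r = 0.83 to 0.92, and 30 min arrays with 6 hr arrays with r = 0.31 to 0.42. The median of all clones (mean of both genotypes) was 0.10 at 30 min, -0.16 at 2 hr and -0.96 at 6 hr, so an uncentred -1 at 6 hr is close to the middle of those arrays. Within a clone, the SD of the 3 spots had a median of 0.118 in the 112 clones and 0.109 in all 3018. All 36 spots were measured for 97 of the 112.

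At 30 min the 112 clones spanned 0.59 to 2.69 in LA2711, with a median of 1.08, and 0.58 to 3.19 in ZS-5, with a median of 1.40. At 6 hr they spanned -6.20 to -1.0 in LA2711, with a median of -3.36, and -6.28 to -1.07 in ZS-5, with a median of -3.54. All 112 were above 0 on each of the 4 arrays of 30 min and below 0 on each of the 4 arrays of 6 hr. The 6 hr minus 30 min difference (mean of both genotypes) ran from -7.76 to -1.75, with a median of -4.86, and was -4 or less in 77 clones. Of 385 clones at 0.58 or more at 30 min in both genotypes, 125 met the 6 hr threshold as well, namely the 112 and 13 with a gene symbol. Another 145 lay at 1 or more at 6 hr in both genotypes, and 115 did neither. The opposite course was rarer. Of 216 clones at -0.58 or less at 30 min in both genotypes, 3 lay at 1 or more at 6 hr in both, and 195 at -1 or less. With each array centred on its median, 16 of 314 took that opposite course, and 69 of the 112 clones still met the thresholds of the choice.

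The thresholds cut through a continuous range at 30 min and through a sparser one at 6 hr. Just inside at 30 min lay the clone of spots 9106 to 9108 at 0.591 in LA2711 and that of spots 6193 to 6195 at 0.585 in ZS-5. Just outside lay spots 8455 to 8457 at 0.58 in LA2711, below the threshold before rounding, and spots 9763 to 9765 at 0.579 in ZS-5. These gaps are far smaller than the median SD of a pair of arrays at 30 min, 0.439 in LA2711 and 0.212 in ZS-5. At 6 hr the innermost clones were spots 5602 to 5604 at -1.0 in LA2711 and spots 5074 to 5076 at -1.07 in ZS-5. The nearest ones outside were spots 3556 to 3558 at -0.77 in LA2711 and spots 2692 to 2694 at -0.88 in ZS-5. Clones without a symbol that missed a single threshold numbered 64 for LA2711 at 30 min, 69 for ZS-5 at 30 min, 6 for LA2711 at 6 hr and 7 for ZS-5 at 6 hr. The choice rests partly on the first LA2711 array of 30 min, on which the 112 clones had a median of 1.47 against 0.79 on the second. Without the first array 69 clones met the thresholds, and 57 did so when both arrays of each pair had to pass.

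**Figure D1:**
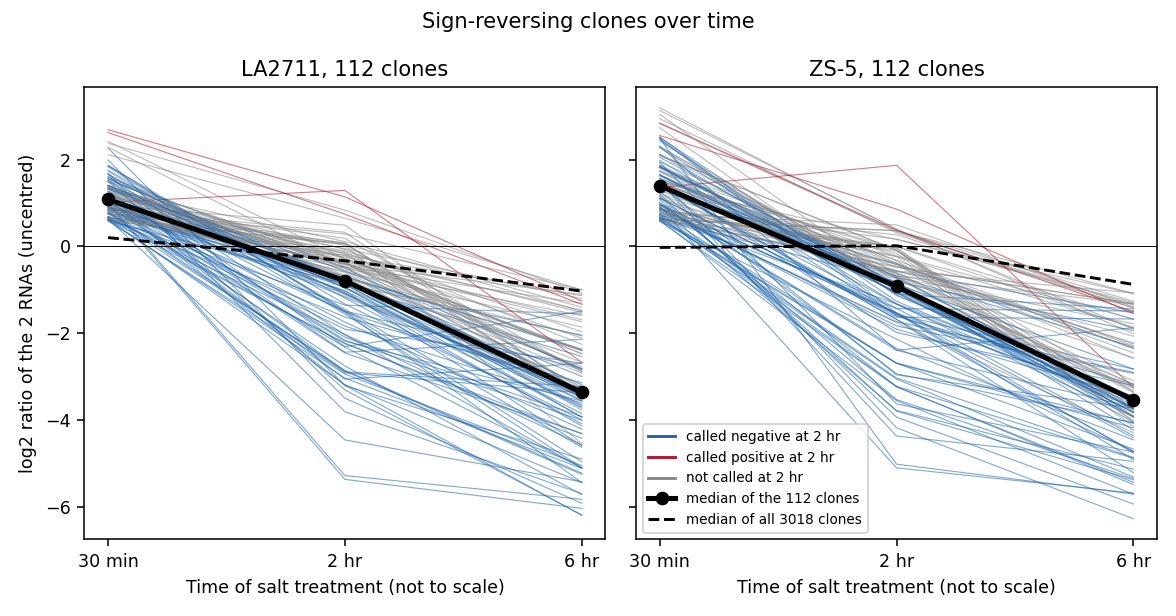
Uncentred log2 ratio (vertical axis) of each of the 112 clones at 30 min, 2 hr and 6 hr (horizontal axis, not to scale), in LA2711 on the left and ZS-5 on the right; a thin line is 1 clone, as the mean of 2 arrays, coloured by its limma call at 2 hr, the thick line is the median of the 112 and the dashed line that of all 3018 clones. The median of the 112 clones ran through 1.08, -0.79 and -3.36 in LA2711 and 1.40, -0.92 and -3.54 in ZS-5.

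The 2 hr arrays, which took no part in the choice, show on which side the clones lay between the early and the late time. Of the 112 clones, 63 were called on the negative side and 3 on the positive side, and 46 were not called (limma, mean of both genotypes against 0, Benjamini-Hochberg adjusted p under 0.05 over 3018 clones). Among all 3018 clones 37.8% were called negative and 21.2% positive, so the share of 56.2% negative in the 112 was higher and that of 2.68% positive lower. The share of uncalled clones was 41.1% in the 112 and 41.0% in all. Over all clones 2 hr arrays correlated with 6 hr arrays (r = 0.83 to 0.92). A choice by negative 6 hr values thus favours negative 2 hr values, and the contrast with all clones is not independent of the choice. The median at 2 hr was -0.87 in the 112 and -0.16 in all clones. Both genotypes were below 0 in 90 of the 112 (80.4%, against 46.7% of all clones) and above 0 in 6 (5.36%, against 38.5%). They lay on opposite sides in 16 (14.3%, against 14.8%). On all 4 arrays 82 lay below 0 (73.2%, against 42.4%) and 5 above (4.46%, against 29.2%). At -1 or less in both genotypes were 44 clones (39.3%, against 26.9%), all called. Of the calls over all clones 35.96% were positive, and 46.8% with centred arrays. With centring the 112 had 58 negative and 4 positive calls, and all 3018 clones had 1106 and 972. Plants of each genotype give 1 value per time, and nothing says that the conditions came from separate cultures. The fit has no genotype term, so these p-values measure only the spread between LA2711 and ZS-5 within a time. A clone in which the genotypes differ is thus harder to call. That spread is pooled over the 3 times and so draws on 30 min and 6 hr values of the choice. With limma on the 2 hr values alone, an alternative chosen after seeing the data, 61 of the 112 were called negative (against 36.7% of all clones) and 2 positive (against 19.5%). A clone without a call is not shown to lie at 0.

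**Figure D2:**
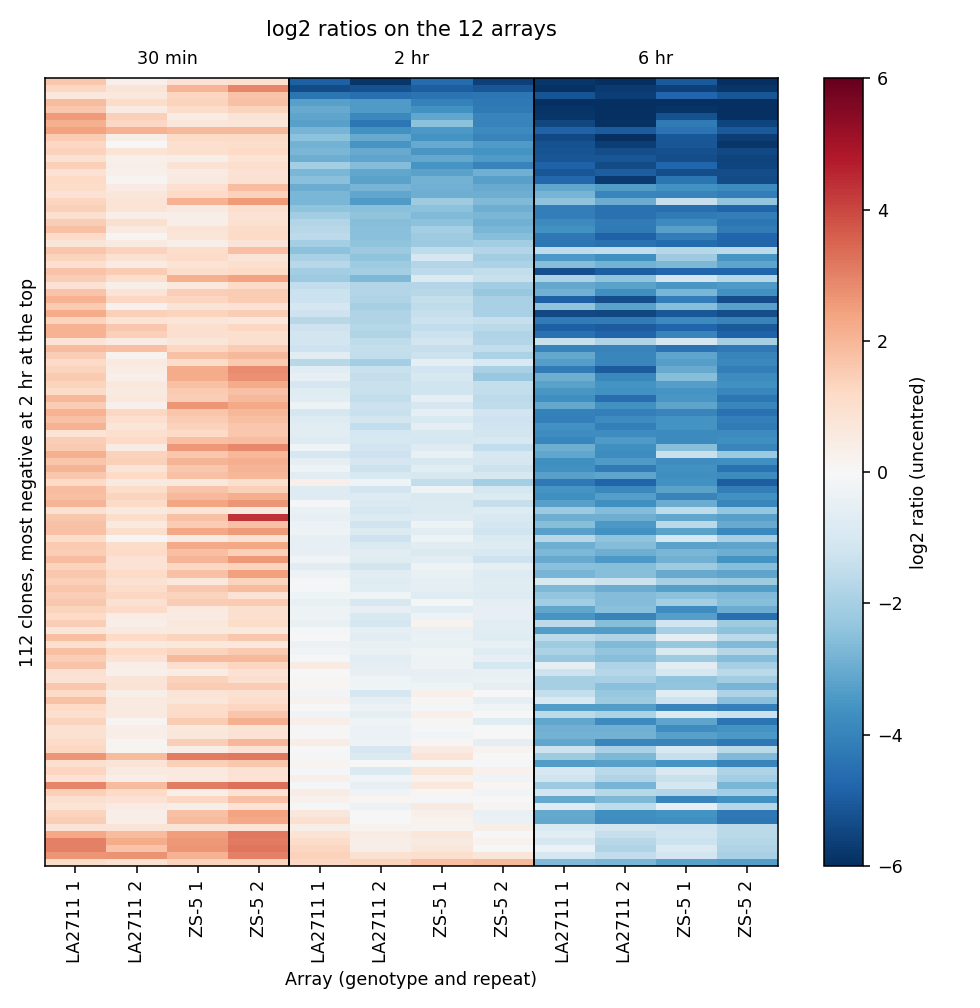
Uncentred log2 ratios of the 112 clones (rows, ordered by their 2 hr mean) on each of the 12 arrays (columns, by time, genotype and repeat); red is the positive side, blue the negative side, and colours saturate at 6 and -6. All 30 min columns are red and all 6 hr columns blue, whereas the 2 hr columns run through blue, white and light red from top to bottom.

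The clones lowest at 2 hr, those of spots 46 to 48 and 4570 to 4572, were close to their 6 hr values. The clone of spots 46 to 48 lay at 1.62 and 0.32 in LA2711 and at 0.85 and 0.998 in ZS-5 at 30 min. At 2 hr it lay at -4.90 and -5.84 in LA2711 and at -4.60 and -5.60 in ZS-5, and at 6 hr at -5.82 and -6.25 in LA2711 and -5.02 and -6.34 in ZS-5. Its 2 hr and 6 hr arrays overlap. The 2 hr mean was -5.24 ± 0.19 (SE, limma adjusted p = 8.88e-06), the lowest of the 112. Spots 4570 to 4572 followed, with 1.23 and 0.80 in LA2711 and 2.06 and 2.94 in ZS-5 at 30 min. This clone lay at -5.35 and -5.21 in LA2711 and -4.93 and -5.11 in ZS-5 at 2 hr, with a mean of -5.15 ± 0.34 (SE, limma adjusted p = 2.07e-05). By 2 hr these clones had covered 90.8% and 91.8% of the difference between 30 min and 6 hr.

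The third lowest at 2 hr was the clone of spots 3946 to 3948, at -4.38 and -4.54 in LA2711 and -4.42 and -4.32 in ZS-5, and at -5.64 to -4.76 over the 4 arrays of 6 hr. The next 5 lay between -3.74 and -3.42 at 2 hr (spots 4951 to 4953, 1693 to 1695, 355 to 357, 679 to 681 and 6865 to 6867). They had covered 65.2% to 79.8% of their difference by then. Spots 4951 to 4953 had the largest 6 hr minus 30 min difference of the 112, -7.76, with -6.24 and -6.13 in LA2711 and -6.24 and -6.32 in ZS-5 at 6 hr. Spots 4570 to 4572 at -7.52, spots 1693 to 1695 at -7.20 and spots 355 to 357 at -7.11 came next. In the last of these the genotypes were apart at 30 min, with 2.56 and 1.42 in LA2711 and 0.43 and 0.78 in ZS-5, and alike at 2 hr, with -3.14 and -3.85 in LA2711 and -3.13 and -3.98 in ZS-5.

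On the other side stand the 6 clones that were still positive in both genotypes at 2 hr. The clone of spots 6931 to 6933 lay higher at 2 hr than at 30 min. It had 1.12 and 0.92 in LA2711 and 1.36 and 1.36 in ZS-5 at 30 min, 1.24 and 1.34 in LA2711 and 1.81 and 1.93 in ZS-5 at 2 hr, and -2.62 and -2.72 in LA2711 and -3.21 and -3.30 in ZS-5 at 6 hr. Its 30 min and 2 hr arrays are all positive and its 6 hr arrays all negative. The 2 hr mean of 1.58 ± 0.24 (SE, limma adjusted p = 0.00137) was the highest of the 112. The clone of spots 7366 to 7368 lay at 1.38 and 0.90 in LA2711 and 1.0 and 0.72 in ZS-5 at 2 hr, with a mean of 0.999 ± 0.19 (SE, limma adjusted p = 0.00381).

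Of the other 4, spots 4798 to 4800 had a 2 hr mean of 0.56 (limma adjusted p = 0.0431), a call that was lost under 18 of 29 alternative settings. Spots 2137 to 2139 at 0.57 (adjusted p = 0.0701), spots 2797 to 2799 at 0.50 (0.114) and spots 5602 to 5604 at 0.28 (0.241) were not called, though each gained a call under 2 to 4 of these settings. The next highest 2 hr means were those of spots 424 to 426 at 0.20 and spots 2005 to 2007 at 0.12, neither called. Spots 5602 to 5604 lay at 0.80 and 0.78 in LA2711 and 0.81 and 0.84 in ZS-5 at 30 min. With -0.89 and -1.11 in LA2711 and -1.24 and -1.60 in ZS-5 at 6 hr it had one of the 4 smallest differences of the 112, at -2.02, together with spots 4717 to 4719 at -1.75, spots 4648 to 4650 at -2.02 and spots 1447 to 1449 at -2.09.

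The share of the 30 min to 6 hr difference that had been covered by 2 hr describes the timing of all 112 clones, and has no test because it uses the values of the choice. Its median was 51.0%, with quartiles of 44.9% and 63.5%. It lay from 40% to 60% in 57 clones, under 40% in 21 and over 60% in 34. It was below 0 in the single clone of spots 6931 to 6933. At the other end, 2 clones had a lower mean of both genotypes at 2 hr than at 6 hr. Spots 6655 to 6657 lay at -2.46 and -2.16 in LA2711 and -1.53 and -1.74 in ZS-5 at 2 hr, and at -1.51 and -1.49 in LA2711 and -1.71 and -1.64 in ZS-5 at 6 hr. The arrays of the 2 times overlap in ZS-5 and not in LA2711. Spots 5863 to 5865 had 2 hr means of -3.06 in LA2711 and -2.39 in ZS-5, and 6 hr means of -2.69 in LA2711 and -1.87 in ZS-5. Both were called at 2 hr (limma adjusted p = 0.000286 and 0.000634).

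Across the 112 clones, which are not independent, the Pearson correlation of LA2711 with ZS-5 values was 0.55 for 30 min, 0.93 for 2 hr and 0.95 for 6 hr. Over all 3018 clones it was 0.81, 0.94 and 0.98 at these times, in the same order. The choice cut the range of the 112 at 30 min and 6 hr. At 30 min and 6 hr the choice itself holds both genotypes to the same side. At 2 hr, where it does not, each genotype has 1 replicate and the difference was not tested. The LA2711 minus ZS-5 difference at 2 hr had a median of 0.12 in the 112 clones and -0.31 in all 3018, and was above 0 in 77 of the 112. The arrays of LA2711 lay wholly above those of ZS-5 in 17 of the 112 (15.2%, against 9.61% of all clones) and wholly below in 17 (15.2%, against 44.9%). With centred arrays the medians were 0.48 in the 112 and 0.055 in all clones.

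Differences of 2-fold or more between the genotypes at 2 hr were few. LA2711 was higher by this much in 3 of the 112 (2.68%, against 1.72% of all clones) and lower in 2 (1.79%, against 13.0%). The widest gap was that of spots 2950 to 2952, with 0.30 and -0.25 in LA2711 and -1.46 and -2.06 in ZS-5 at 2 hr, a difference of 1.79. At 6 hr the same clone had -4.31 and -4.78 in LA2711 and -3.64 and -4.95 in ZS-5, which overlap. Spots 406 to 408 differed by 1.46, with -2.06 and -2.58 in LA2711 and -3.56 and -4.0 in ZS-5, and spots 1366 to 1368 by 1.04. The 2 lower ones were spots 7279 to 7281, with -2.19 and -2.69 in LA2711 and -0.87 and -1.34 in ZS-5, and spots 3964 to 3966, with -1.65 and -2.03 in LA2711 and -0.53 and -0.92 in ZS-5. Their differences were -1.34 and -1.11. In each of these 5 clones the 2 arrays of a genotype did not overlap those of the other genotype at 2 hr. The 5 were picked by that same difference, so the lack of overlap only describes them.

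**Figure D3:**
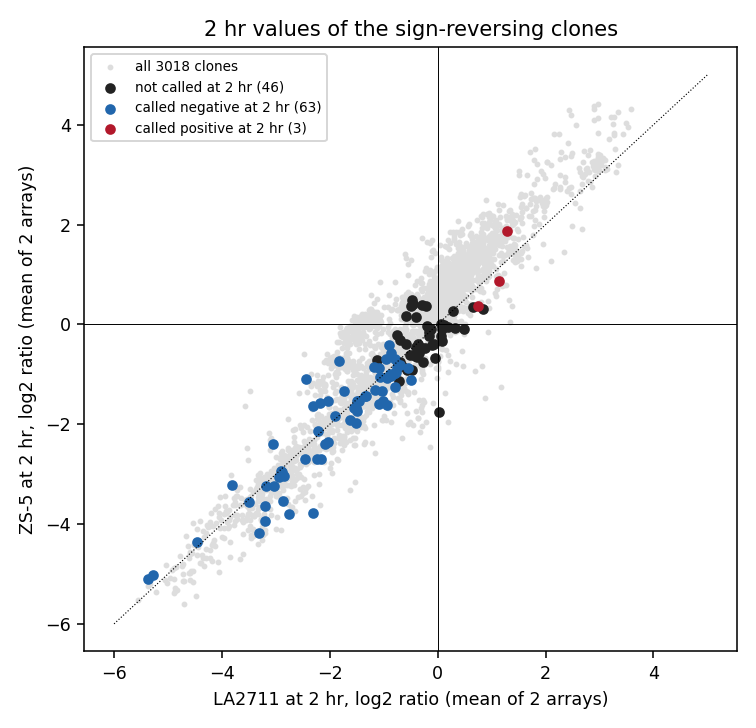
Log2 ratio at 2 hr in LA2711 (horizontal axis) and in ZS-5 (vertical axis), each the mean of 2 arrays, for all 3018 clones in grey and the 112 clones in colour by their limma call; the dotted line marks equal values. The 63 negative calls lie in the lower left along the line, the 3 positive calls in the upper right, and most of the 46 uncalled clones near 0.

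Clones with similar time courses were grouped as a description, since 4 of the 6 values compared are those of the choice. The remaining values are the 2 hr means of both genotypes. How many clones of a group were called at 2 hr therefore follows largely from the grouping and describes the group only. With a limit chosen after seeing the values, all members of a group had to lie within a root mean square distance of 0.5 over the 6 condition means. Any 2 of the 112 clones lay 1.27 apart (median), and 7.82% of such pairs lay within the limit. For scale, repeat 1 and repeat 2 of the same clone lay 0.514 apart (median over the 112). This gave 18 groups of 3 or more that hold 82 clones, while 18 clones formed pairs and 12 stood alone. The closest clones were spots 6835 to 6837 and 9232 to 9234, at a distance of 0.079. Whether the clones of a group stem from a single transcript was not tested, since no sequence of them was used here.

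The groups differed mainly at 2 hr and in depth at 6 hr. A group of 7 that begins with spots 406 to 408 had medians of 0.68, -2.87 and -5.22 at the 3 times in LA2711 and 0.92, -3.24 and -5.35 in ZS-5, and all 7 were called at 2 hr. A group of 6 that begins with spots 73 to 75 had medians of 1.40, -1.01 and -3.93 in LA2711 and 1.69, -0.92 and -3.92 in ZS-5, with all 6 called. A further 7, from spots 1651 to 1653 on, had medians of 1.41, -0.76 and -3.46 in LA2711 and 2.12, -0.96 and -3.72 in ZS-5, with 5 called. These 3 groups had crossed to the negative side by 2 hr.

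Another group, of 7 clones from spots 124 to 126 on, lay between its early and late values at 2 hr, from -0.33 to 0.49 over both genotypes. Its medians were 0.87, 0.08 and -3.37 in LA2711 and 1.72, -0.10 and -3.94 in ZS-5, and 0 of the 7 were called at 2 hr by limma, also 0 at an unadjusted p under 0.05. In this group ZS-5 lay above LA2711 at 30 min and below it at 6 hr in the medians. A group of 4 (spots 2137 to 2139, 2797 to 2799, 4798 to 4800 and 7366 to 7368) started highest, with medians of 2.50, 0.79 and -1.17 in LA2711 and 2.84, 0.36 and -1.46 in ZS-5. A further 4 (spots 3031 to 3033, 3334 to 3336, 6580 to 6582 and 8833 to 8835) ran through medians of 1.75, -1.53 and -5.10 in LA2711 and 1.26, -1.61 and -4.84 in ZS-5. The smallest movement among the groups of 5 or more was that of 5 clones from spots 3733 to 3735 on, with 0.66, -0.21 and -1.31 in LA2711 and 0.74, 0.27 and -1.39 in ZS-5. Of these 5, 0 were called at 2 hr by limma, also 0 at an unadjusted p under 0.05.

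**Figure D4:**
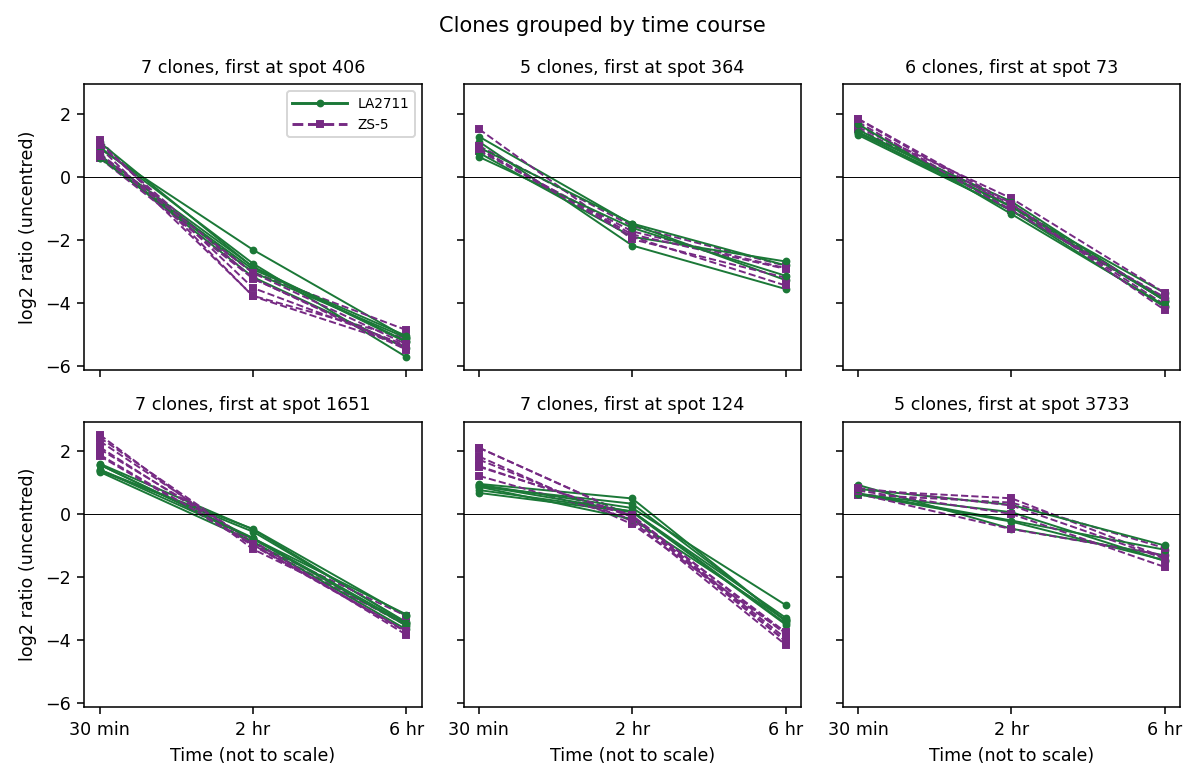
Uncentred log2 ratio (vertical axis) at 30 min, 2 hr and 6 hr (horizontal axis, not to scale) for the 6 groups with 5 or more clones, ordered by their 2 hr level; each line is 1 clone as the mean of 2 arrays, solid with circles in LA2711 and dashed with squares in ZS-5. At 2 hr the panels run through medians from -2.87 in LA2711 and -3.24 in ZS-5 (first at spot 406) to -0.21 in LA2711 and 0.27 in ZS-5 (first at spot 3733).

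The same thresholds were met by 13 clones with a gene symbol. They are 8 of the 9 NAC1 clones (a NAC-domain transcription factor), 3 of the 7 AOS clones (allene oxide synthase, of jasmonate synthesis), the single clone of DES (divinyl ether synthase, of oxylipin metabolism) and 1 of the 3 clones of MT2 (a metallothionein, a metal-binding protein). Thus 16.9% of the 77 measured clones with a symbol met the thresholds, against 3.81% of the 2941 without one, and 11 of the 13 are clones of NAC1 and AOS.

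Of those 13 clones, 11 were called at 2 hr on the negative side and 2 on the positive side, which are DES at 1.59 (limma adjusted p = 0.00293) and NAC1 (spots 4192 to 4194) at 0.96 (limma adjusted p = 0.0123). Neighbours in time course were found for some of the 112. Within a distance of 0.5 of a NAC1 clone, as the closest clone with a symbol, lay 9 of them, within 0.5 of an AOS clone 4, of MT2 4, of SAM3 3, and of MTSHP and VAHOX1 1 each. The closest was spots 1693 to 1695, at 0.138 from the NAC1 clone of spots 4315 to 4317. A shared time course does not name a clone, and no name is given to any of the 112.

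The clone with a symbol nearest to the median course of the 112 was MTSHP, a mitochondrial small heat shock protein gene, at a distance of 0.689. It had means of 0.15, -0.80 and -3.67 in LA2711 and 0.21, -0.97 and -4.22 in ZS-5, and so missed both 30 min thresholds. The other close ones were MT2 (spots 9751 to 9753) at 0.784, ACS7, an aminocyclopropane carboxylate synthase of ethylene synthesis, at 0.794, PPCK1, a phosphoenolpyruvate carboxylase kinase gene, at 1.07 and VAHOX1, a homeobox gene, at 1.09. All 5 distances exceed the 0.5 used for the groups.

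The dye orientation moved the 112 clones about as much as it moved the others. The array with treated RNA in Cy5 gave higher ratios than the array with treated RNA in Cy3 in 84 of the 112 by limma over the 6 pairs (75%, against 73.9% of all clones), and lower ones in 0 (against 0.464%), also 0 at an unadjusted p under 0.05. The median of this difference was 0.47 in the 112 and 0.40 in all clones. With each array centred on its median, 40 of the 112 were called, 20 on each side. The matching share of all clones is not given here, so this count has no background beside it. Averaging a pair cancels a dye effect of this kind. The largest gap between repeats of a clone was that of spots 9499 to 9501 in ZS-5 at 30 min, with 1.77 and 4.32, while LA2711 had 1.598 and 1.07.

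The clones were spread over the array. They made up 4.53% of the tested clones among spots 1 to 2592, 4.15% among spots 2593 to 5184, 3.12% among spots 5185 to 7776 and 2.99% among the remaining spots. In 3 cases members were immediate neighbours, with distances of 1.12 to 2.32 between their time courses, against the median of 1.27 for any 2 of the 112.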

How the data were processed

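The authors deposited a log2 ratio for each spot. Their scanning and normalization steps are not stated in the sources used here. Unlogged, the ratio itself (treated RNA in Cy3) or its inverse (treated RNA in Cy5) had 3 decimals at 100% of the spots (tolerance 0.05 in the third decimal, ratios of 1 or less), against 9.33% to 11.1% the other way round, so the deposited signs all run the same way. Intensities were not used, and precision is limited by how few arrays there are. Spots came in sets of 3 (median SD within a set 0.109, against 0.568 for sets shifted by 1 spot). The mean of each set was taken as 1 clone, leaving out spots at or beyond a ratio of 0.001 or its inverse. GEO's annotation of the platform gives 1 symbol to 237 spots (79 clones), several to 0, and leaves 3377 clones unnamed.

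Dye-swap pairs were averaged to 6 values per clone. limma 3.58.1 (R 4.3.3, lmFit and eBayes, 2-sided, Benjamini-Hochberg) tested 3 time means (3 residual degrees of freedom) and, separately, the difference between the 2 arrays of the 6 pairs (5 residual degrees of freedom), over 3018 clones. Both tests were checked on simulated data, where the 2 hr test missed most of the 2-fold changes and the dye test few. Arrays were not centred, as in the choice of the clones. Alternatives were centring, quantile normalization, spot summary, spots at the limits, clone filters, arrays as separate samples, arrays left out, and a fit of the 2 hr values alone. Clones are named at the extremes of the 2 hr mean (8 a side), of the 6 hr minus 30 min difference (4 a side) and of the genotype difference at 2 hr (4 a side), at the thresholds (3 a side), and, with a symbol, where they met the thresholds or were the 5 most alike; 6655, 5863, 9499 and the profile groups were singled out after their values were seen. The members, lists and tests were chosen with earlier results of these data known.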

Additional observations from a re-analysis of the deposited data

Results flagged for a closer look

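In 6 of the 112 clones both LA2711 arrays lay on one side of 0 at 2 hr and both ZS-5 arrays on the other. These differences were not tested, because each genotype has 1 replicate at that time. The share of all 3018 clones with this pattern was not counted. Genotype means on opposite sides of 0 were about as frequent in the 112 (14.3%) as in all clones (14.8%). LA2711 was negative and ZS-5 positive in 5 of the 6. Over all clones the LA2711 arrays lay wholly below those of ZS-5 at 2 hr in 44.9% and wholly above in 9.61%. The LA2711 minus ZS-5 difference was -0.97 for spots 3733 to 3735, -0.76 for spots 2965 to 2967, -0.67 for spots 1483 to 1485, -0.57 for spots 4717 to 4719 and -0.56 for spots 7312 to 7314. In the clone of spots 8509 to 8511 LA2711 was positive and ZS-5 negative, with a difference of 0.235. At 2 hr spots 3733 to 3735 lay at -0.06 and -0.88 in LA2711 and at 0.72 and 0.28 in ZS-5, and spots 2965 to 2967 at -0.17 and -1.01 in LA2711 and at 0.30 and 0.04 in ZS-5.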

How the results depend on the processing

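Of the 112 clones 66 were called at 2 hr, and 50 to 73 with an array or a condition left out. With the 2 hr values alone, chosen after seeing the data, 63 were called. None of the 29 alternatives turned the side of a called clone. Many of them could not. Those that changed only the fit, or left out arrays of 30 min or 6 hr, kept the 2 hr means and moved only the p-values. Over all clones 1780 were called, and 1439 to 1903 with arrays left out. The positive calls over all clones were 640, and 972 with centring, 299 without both ZS-5 arrays of 2 hr and 1076 with the replicate block. The positive calls among the 112 were 3, and 1 with all 3 spots required on every array (97 clones left), 5 with 12 separate arrays and 6 with the replicate block. With the repeat number as a replicate block on 12 arrays, 91 of the 112 were called, which counts each pair as 2 samples. Whether the repeat numbers pair the plants was not tested. The deviations of repeat 1 correlated with r = 0.75 to 0.86 among 5 conditions. Between these and ZS-5 at 30 min, where the labels give the dyes in the opposite order, r was -0.56 to -0.45. Clones with very large gaps between repeats, at most 16.8 to 17.9 in a condition, stayed in these correlations. The count of clones meeting the thresholds was 69 with centring, 57 with both arrays of each pair required, and 69 to 157 with single arrays left out, the lowest without the first and the highest without the second LA2711 array of 30 min. With quantile normalization 109 met them, of which 83 are among the 112. The dye difference was called in 84 of the 112, in 40 with centring and in 74 to 85 with pairs left out. Of the named clones, spots 4798 to 4800 lost the call under 18 alternatives, and spots 3964 to 3966 and 7279 to 7281 under 1 each. A call was gained by spots 2950 to 2952 under 5, by 2137 to 2139 under 4, by 2797 to 2799 and 5602 to 5604 under 2 each and by 4648 to 4650 under 1. The causes were not tested.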

Other observations

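Among the 438 clones not measured on all arrays, 5 without a symbol met the same thresholds on the arrays that measured them. The clone of spots 3601 to 3603, measured on 10 arrays, had means of 1.99, -3.18 and -4.34 at 30 min, 2 hr and 6 hr in LA2711 and 2.27, -3.05 and -4.54 in ZS-5. Spots 9316 to 9318, also on 10 arrays, lay lower at 2 hr than at 6 hr, with -2.08 and -1.73 in LA2711 and -2.17 and -1.45 in ZS-5. Spots 2632 to 2634, 7753 to 7755 and 10021 to 10023 were measured on 11 arrays. Their 2 hr means were -3.29, -0.19 and -0.62 in LA2711 and -4.08, -0.58 and -0.85 in ZS-5.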
